A study of Mus musculus with 12 samples.

Results

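The nuclear genes of the mitochondrial respiratory chain were taken as the genes with a symbol that begins with Nduf, Uqcr, Cox4 to Cox8 or Atp5, or that is Sdha, Sdhb, Sdhc or Sdhd, on a probe set with exactly 1 gene symbol. A gene with several such probe sets is represented by the brightest of them (highest mean of all 12 arrays). The rule found 89 of the 22180 genes measured. By complex these were 40 genes of complex I, 4 of complex II, 8 of complex III, 19 of complex IV and 18 of complex V. They comprise 70 subunits, 8 assembly factors of complex I (Ndufaf1 to Ndufaf8), 8 tissue-restricted isoforms of complex IV, the supercomplex factor Cox7a2l and 2 pseudogenes, Uqcrh-ps1 and Atp5c1-ps. Another 10 probe sets that match the pattern carry several symbols and stayed out, among them those of Cox6c, Ndufb2, Ndufb4, Ndufs6 and Uqcr10.

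The arrays hold RNA of dendritic cells, which take up and present antigen, grown from the bone marrow of C57BL/6 mice aged 8 weeks with GM-CSF at 20 ng/ml and taken on day 7. The 4 groups were Arc/Arg3.1 -/- cells given LPS, untreated Arc/Arg3.1 -/- cells, wildtype cells given LPS and untreated wildtype cells, with 3 arrays each. LPS, a bacterial cell wall component sensed by Toll-like receptor 4, was given at 100 ng/ml for 30 min, and after 3 washes all groups, the untreated ones included, stayed in medium for 1 h before the cells were pelleted. Arc is an immediate early gene, and how its allele was made is not given in the labels. The titles number the samples of each group as biological replicates but do not tell whether each culture had its own donor mouse, and the spread behind every p-value is that between cultures. Such GM-CSF cultures are known to hold macrophages and granulocytes beside dendritic cells.

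The respiratory chain carries electrons from NADH (complex I) and succinate (complex II) through coenzyme Q to complex III and, by cytochrome c, to complex IV, where oxygen is reduced. Complexes I, III and IV pump protons, and complex V, the ATP synthase, uses their return flow to make ATP. Most subunits are encoded in the nucleus and a core set in the mitochondrial genome. In dendritic cells and macrophages, LPS is known to raise glycolysis early and, over longer exposure, to lower mitochondrial respiration. The nuclear genes share binding sites for factors such as NRF1, GABP, YY1 and the estrogen-related receptors.

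Of the 89 genes, 72 matched a RefSeq promoter table (assembly GRCm38.p6) that holds 250 bases before to 50 bases after each gene's start. The palindromic NRF1 core GCGCATGCGC, which reads alike on both strands, was found in 7 of the 72 (9.72%), against 1.07% of the 27025 genes in the table and 1.49% of the 16990 genes that were also measured. The stretches of 30 bases around these matches are shown because genes of 4 complexes share this element. Each is written 5′ to 3′ on the gene's strand with the match in capitals.
Atp5g2: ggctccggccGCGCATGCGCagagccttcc
Atp5k: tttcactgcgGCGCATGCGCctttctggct
Cox6a1: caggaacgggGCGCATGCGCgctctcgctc
Ndufa11: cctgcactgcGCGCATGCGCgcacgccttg
Ndufaf4: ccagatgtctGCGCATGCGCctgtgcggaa
Ndufaf5: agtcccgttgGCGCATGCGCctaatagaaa
Uqcrc1: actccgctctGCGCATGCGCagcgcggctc
The stretch of Atp5g2 lies at chr15:102671070-102671099 on the minus strand, that of Atp5k at chr5:108434430-108434459 on the minus strand and that of Cox6a1 at chr5:115349101-115349130 on the minus strand. Those of Ndufa11 (chr17:56717692-56717721), Ndufaf4 (chr4:24897960-24897989), Ndufaf5 (chr2:140170652-140170681) and Uqcrc1 (chr9:108936668-108936697) lie on the plus strand. The match was centred 37, 45, 157, 55 and 108 bases before the start of Atp5g2, Atp5k, Cox6a1, Ndufa11 and Ndufaf4, and 21 and 35 bases after the start of Ndufaf5 and Uqcrc1. On either strand, the ETS core bound by GABP, CCGGAAG, was in a promoter of 19 of the 72 genes (26.4%, against 9.93% of the table and 12.7% of the measured genes). The YY1 core AAGATGGC was in 10 (13.9%, against 3.19% and 3.64%) and the estrogen-related receptor core AAGGTCA in 6 (8.33%, against 5.38% and 4.67%). The promoters of the respiratory chain genes also had more G and C, with a median of 58.3% against 52.7% of all promoters in the table and 56.7% of those of measured genes. In 0 of the 72 genes, which have 77 promoters in the table, did matches of different motifs share bases. A match is a description of these letters and not a measured binding site.

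Facts of the whole series that touch these genes are as follows. The deleted gene, Arc, gave log2 signals between 7.68 and 8.05 on knockout (KO) arrays, 6 in number, and between 9.21 and 9.62 on the 6 wildtype (WT) arrays. Dendritic cell markers were well above the probe sets without a gene, whose median per array was 5.89 to 6.10, with H2-Ab1 at 13.37 to 13.55. Genes of mean log2 signal over 8, 6440 in number, are called the brighter genes here. Over these, the 3 untreated WT arrays were more alike than arrays of any other group. The differences between any 2 of them had an SD of 0.105 to 0.108, against 0.193 to 0.438 in the other 9 pairs of arrays of a group. Over the 89 genes the SDs were 0.138 to 0.183 and 0.172 to 0.323, ranges that overlap. Although the untreated WT arrays are labelled as biological replicates, their mean was counted as 1 sample, without an SD, in a fit of 10 samples. The ground was their likeness over the brighter genes. Y-linked genes gave signal, and Xist little (5.63 to 5.76), on replicate 2 of both KO groups and replicate 1 of the LPS-treated WT group, while Xist was at 11.22 to 11.92 on the other 9 arrays, although all mice are labelled male. Replicates 2 and 3 of both LPS groups had a low signal of small nucleolar RNA genes, with a median over 73 genes of 9.55 to 9.85, against 10.44 to 11.04 on the other 8 arrays. Several results below are also given without these arrays.

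Most of the respiratory chain genes gave clear signal in these cells. The mean log2 signal of 83 of the 89 was above 6.10, the highest of the medians of probe sets without a gene. The other 6 were the pseudogenes Atp5c1-ps and Uqcrh-ps1, the testis isoforms Cox7b2 and Cox8c, the heart and muscle isoform Cox8b, and Ndufa4l2, the isoform of Ndufa4 known to be induced by hypoxia. Over the 12 arrays, a gene's log2 signal ranged over 0.63 at the median, with a least range of 0.35 and a greatest of 1.54. All 89 stay in the counts below.

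In KO cells the respiratory chain genes as a whole lay lower after LPS, but none passed the test. The limma test, with Benjamini-Hochberg adjustment over all 22180 genes and a threshold of 0.05, called 0 of the 89 genes, against 1311 of all genes (5.91%). At an unadjusted p under 0.05 there were 34, of which 33 had lower signal, against 4493 of all genes (20.3%) and 2208 of the 6440 brighter genes. The difference was below 0 for 80 of the 89 genes, with a median log2 difference of -0.27, against -0.00 over all genes and -0.12 over the 6440 brighter genes. The share below 0 was 89.9%, against 50.7% of all genes and 65.2% of the brighter ones. For a typical member the 95% interval of the difference reached 0.31 to either side. On 43 of the 89 genes (48.3%) every LPS array was below every untreated array, against 14.8% of all genes and 26.4% of the brighter ones. Only Cox4i2 lay the other way without overlap, as did 10.3% of all genes.

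Residuals of same-numbered arrays of the KO groups correlated, and with the replicate number as a block the outcome changed. In a fit of the 9 arrays other than untreated WT with this block, 13 of the 89 genes (14.6%) fell after LPS in KO cells, against 6.13% of all genes that fell. They were Ndufa4, Ndufv2, Ndufa6, Cox7b, Cox7a2, Atp5pb, Atp5mpl, Atp5l, Ndufc2, Ndufa11, Ndufs4, Ndufb5 and Sdhd, with adjusted p from 0.00589 for Ndufa4 to 0.0488 for Sdhd (limma). By complex these are 6 genes of complex I, 1 of complex II, 3 of complex IV and 3 of complex V. The share of the brighter genes was not counted for this fit. The block also matches KO and WT LPS arrays by number, although Y-linked signal was on replicate 2 of the former and replicate 1 of the latter. With all 12 arrays as separate samples and no block, 4 of the 89 fell (4.49%), against 5.18% of all genes.

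In WT cells the genes as a whole had a median LPS difference near that of all genes and below that of the brighter genes. None passed the test. The test called 0 of the 89, against 349 of all genes (1.57%), and 0 of the 89 had an unadjusted p under 0.05, against 9.91% of all genes. The median log2 difference was -0.06, against -0.01 over all genes and 0.06 over the brighter ones, and 60 of the 89 were below 0. With quantile normalization it was -0.13, with 65 below 0, and that in KO cells was -0.23. On 6 genes (6.74%), Atp5l, Ndufa4, Ndufb9, Ndufc2, Uqcrb and Uqcrc2, every LPS array was below every untreated array, against 13.9% of all genes and 13.9% of the brighter ones. Of these, Ndufa4, Ndufb9, Uqcrb and Uqcrc2 were also without overlap in KO cells. Ndufaf2, an assembly factor of complex I, was the 1 gene that lay higher without overlap, as did 16.2% of all genes. With 12 separate arrays and the replicate number as a block, 3 of the 89 (3.37%) fell, namely Atp5l, Ndufa4 and Ndufc2, against 4.57% of all genes, but the numbers do not pair the untreated WT arrays with the others.

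The median LPS difference in WT cells changes with single arrays. Without WT LPS replicate 1 alone it was -0.13, with 70 of the 89 genes below 0. Without WT LPS replicate 3 alone it was 0.03, with 42 below 0. Expressed as the median over the 89 genes of each gene's distance from its mean over 12 arrays, LPS replicates 1, 2 and 3 lay at -0.10, -0.07 and -0.20 in KO cells, and untreated replicates at 0.12, 0.24 and 0.05. In WT cells the LPS replicates lay at 0.16, -0.05 and -0.20, and the untreated ones at 0.05, 0.06 and 0.04. All KO LPS arrays were thus below all untreated KO arrays, whereas WT LPS replicate 1 was above every WT array and the other WT LPS arrays below. That array is one with Y-linked signal, and it alone of the WT LPS arrays lacks the low small RNA signal. The median log2 difference between LPS and untreated cells was -0.27 in KO cells and -0.13 in WT cells without the 3 arrays with Y-linked signal, and -0.26 and 0.12 without the 4 arrays of low small RNA signal. With the 3 arrays with Y-linked signal left out, 61 of the 89 genes (68.5%) were without overlap and lower after LPS in KO cells (2 arrays against 2). The shares there were 27.7% of all genes and 47.6% of the brighter ones. In WT cells (2 arrays against 3) there were 42 (47.2%), against 22.4% of all genes and 25.8% of the brighter ones. With the 4 arrays of low small RNA signal left out, 1 LPS array against 3 untreated ones was left in each genotype. On that array 66 genes (74.2%) were lower in KO cells, against 34.7% of all genes and 60.7% of the brighter ones. In WT cells 15 (16.9%) were, against 32.8% of all genes and 28.4% of the brighter ones. The part of either feature of the arrays in these differences was not tested.

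**Figure D1:**
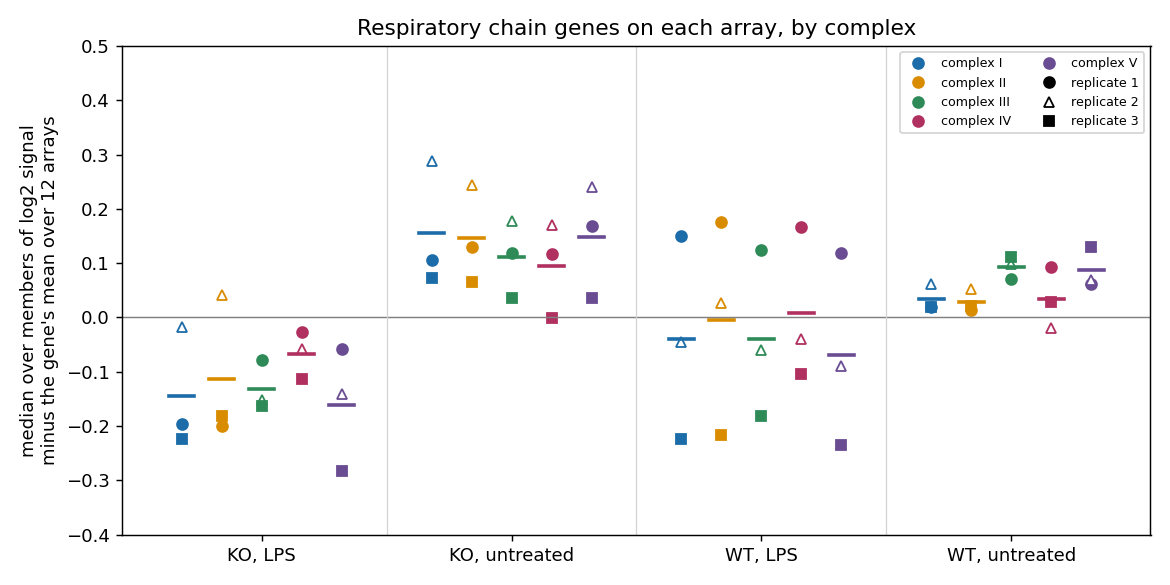
Median over the genes of each complex (colours) of the log2 signal minus the gene's mean over 12 arrays, on the y axis, for each array (symbols, replicates 1 to 3) of the 4 groups on the x axis; bars are the means of 3 arrays. All KO LPS points but that of replicate 2 in complex II are below 0, all untreated KO points are above it but that of replicate 3 in complex IV, which lies at it, and WT LPS replicate 1 (filled circle) stands above the other WT LPS arrays in every complex.

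**Figure D2:**
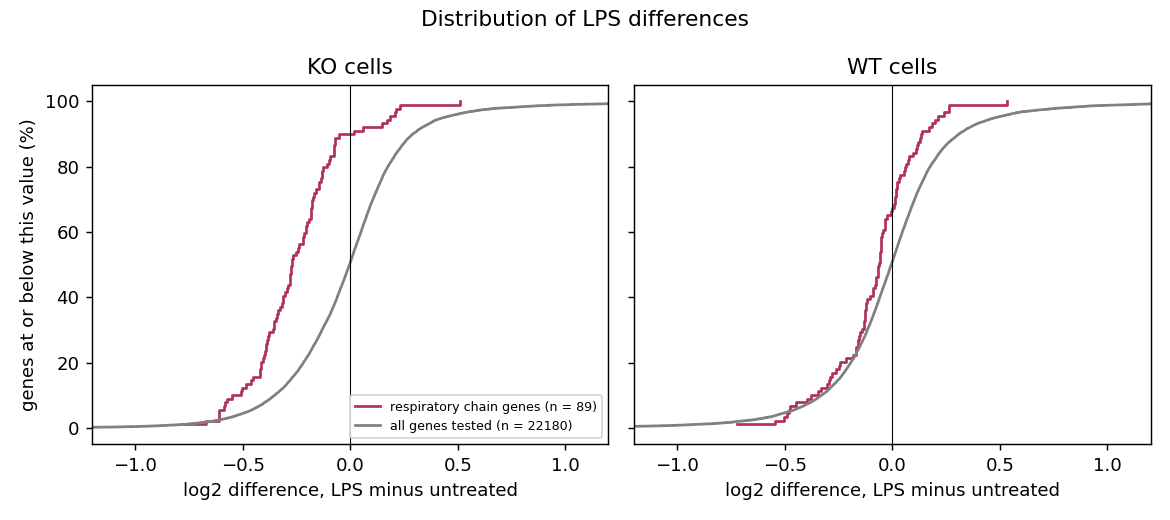
Share of genes, in percent on the y axis, at or below a given log2 difference between LPS and untreated cells on the x axis, for the 89 respiratory chain genes and all 22180 genes, in KO and WT cells. In KO cells the curve of the respiratory chain genes lies to the left of that of all genes, with medians of -0.27 and -0.00, while in WT cells the curves lie close together, with medians of -0.06 and -0.01. The brighter genes, which are not drawn, had medians of -0.12 in KO cells and 0.06 in WT cells.

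Complex I genes lay lower after LPS in KO cells, at a median log2 difference of -0.28, and near 0 in WT cells, at -0.05. In KO cells 38 of the 40 were below 0 and 18 were lower without overlap, beside the 14.8% of all genes and 26.4% of the brighter ones given above. In WT cells 26 were below 0, 2 were lower without overlap and 1, Ndufaf2, was higher, beside 13.9% and 16.2% of all genes. Within the complex, the 32 subunits had a median of -0.32 in KO cells and the 8 assembly factors one of -0.20. The largest difference among core subunits was that of Ndufv2, an iron-sulfur subunit of the NADH-oxidising module. It had log2 signals of 10.41, 10.13 and 9.94 in KO cells after LPS, against 10.73, 10.96 and 10.54 in untreated KO cells. In WT cells it had 10.63, 10.23 and 9.96 after LPS and 10.51, 10.55 and 10.63 untreated. The KO groups did not overlap, and in WT cells replicate 1 sat among the untreated arrays while the other LPS arrays were below them. The difference was -0.58 in KO cells (SE 0.18, adjusted p = 0.0992) and -0.29 in WT cells by limma.

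Ndufa6, an accessory subunit of the matrix arm, averaged 9.45 ± 0.18 after LPS and 10.00 ± 0.17 untreated in KO cells (SD, n = 3 each), a log2 difference of -0.55 (SE 0.17, adjusted p = 0.0922 by limma). In WT cells its LPS arrays were at 9.76, 9.21 and 9.16 against 9.74 to 9.81 untreated (log2 difference -0.40, SE 0.24, adjusted p = 0.723). Ndufb5, an accessory subunit of the membrane arm, had a difference of -0.39 in KO cells (adjusted p = 0.105). Ndufc2, another membrane arm subunit, was at 10.66, 9.99 and 9.97 in KO cells after LPS, against 10.49 to 10.82 untreated, and at 10.53, 10.21 and 10.05 in WT cells after LPS, against 10.73 to 10.78 untreated. Its KO groups overlap through replicate 1, and its WT groups do not. Ndufs1, a core subunit that carries iron-sulfur clusters, and Ndufv1, the one that binds NADH, had differences of -0.22 and -0.16 in KO cells and 0.14 and 0.12 in WT cells, with adjusted p from 0.468 to 0.973. Ndufs5 went the other way in KO cells, with a difference of 0.21, at a signal (mean 6.13) close to that of probe sets without a gene. Ndufaf1, an assembly factor of the membrane arm intermediate, was at 7.33, 7.82 and 7.46 in KO cells after LPS, against 7.84, 8.03 and 8.09 untreated, without overlap (log2 difference -0.45, SE 0.16, adjusted p = 0.138).

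Complex II has 4 genes, all measured. All 4 were below 0 in KO cells, with a median of -0.22, and the median in WT cells was -0.05. Sdhd, a membrane anchor, was at 10.15, 10.06 and 9.88 in KO cells after LPS, against 10.43, 10.48 and 10.32 untreated, without overlap (log2 difference -0.38, SE 0.14, adjusted p = 0.141). In WT cells it was at 10.43, 10.21 and 9.95 after LPS, a span that encloses the untreated values of 10.27 to 10.31 (log2 difference -0.09). Sdha, the flavoprotein that oxidises succinate, was also without overlap in KO cells, at 10.12 to 10.48 after LPS and 10.52 to 10.62 untreated (log2 difference -0.27, SE 0.13, adjusted p = 0.254). Sdhb, the iron-sulfur subunit, and Sdhc, the other anchor, had differences of -0.17 and -0.10 in KO cells and -0.04 and 0.02 in WT cells, with overlapping arrays in both.

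Complex III had a median of -0.24 in KO cells, with 4 of 8 genes lower without overlap beside 14.8% of all genes, and of -0.12 in WT cells, with 2 of 8 beside 13.9%. Uqcrc2, a core subunit, had little spread within the KO groups, with an SD of 0.08 after LPS and 0.03 untreated (n = 3 each). It was at 10.38, 10.40 and 10.25 in KO cells after LPS, against 10.69, 10.71 and 10.64 untreated, and at 10.63, 10.49 and 10.26 in WT cells after LPS, against 10.65, 10.70 and 10.69 untreated. Every LPS array was below every untreated array in both genotypes, by a difference of -0.33 in KO cells (SE 0.11, adjusted p = 0.125 by limma) and -0.22 in WT cells. Uqcrb, a small subunit, had a difference of -0.28 in KO cells (adjusted p = 0.186). Uqcrc1, the other core subunit, and Uqcrfs1, the Rieske iron-sulfur protein, had differences of -0.18 and -0.21 in KO cells and of -0.07 and 0.06 in WT cells.

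Complex IV, with its isoforms counted, was the most mixed, with a median of -0.11 in KO cells and -0.06 in WT cells. Of its 19 genes, 8 were lower without overlap in KO cells, beside 14.8% of all genes, and 1, Cox4i2, was higher, beside 10.3%. The 8 tissue-restricted isoforms had a median of -0.01 in KO cells, at the level of all genes, and enter the median of -0.11. Of the 10 other subunits, Ndufa4, Cox7b, Cox7a2, Cox4i1, Cox6b1 and Cox5a were 1.71-, 1.59-, 1.50-, 1.33-, 1.27- and 1.22-fold lower after LPS in KO cells. Cox8a, Cox6a1 and Cox5b were 1.09-, 1.055- and 1.05-fold lower there, and Cox7c was 1.14-fold higher. Ndufa4, once assigned to complex I and now to complex IV, came closest to the threshold of all 89 genes. It was at 9.37, 9.49 and 8.86 in KO cells after LPS, against 10.15, 10.24 and 9.67 untreated, and at 9.73, 9.34 and 9.26 in WT cells after LPS, against 9.93, 9.97 and 10.06 untreated. The LPS arrays were below the untreated arrays in both genotypes. Ndufa4 was 1.71-fold lower in KO cells (log2 -0.78, SE 0.20, adjusted p = 0.0503) and 1.46-fold lower in WT cells (log2 -0.55, SE 0.29, adjusted p = 0.621). Over the 28 settings run, the adjusted p of Ndufa4 in KO cells lay between 0.00202 and 0.182, so its call changes with the setting. Its RefSeq promoter held none of the 4 motifs. Over the 12 arrays, the genes whose pattern was most like that of Ndufa4 were Uqcrc2 (Pearson r 0.925), Ndufa13 (0.922), Ndufb5 (0.92), Cox7a2 (0.917) and Ndufv2 (0.912), as a description over arrays that share groups and processing.

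Cox7b and Cox7a2, small subunits of complex IV, averaged 9.77 ± 0.24 and 8.89 ± 0.24 in KO cells after LPS, against 10.45 ± 0.39 and 9.48 ± 0.20 untreated (SD, n = 3 each). Their differences were -0.67 (SE 0.25, adjusted p = 0.158) and -0.59 (SE 0.21, adjusted p = 0.147), without overlap. Cox4i1, the ubiquitous form of subunit 4, was at 10.25, 10.00 and 9.97 in KO cells after LPS, against 10.69, 10.46 and 10.29 untreated. In WT cells it was at 10.63, 9.85 and 9.79 after LPS and at 10.55, 10.55 and 10.50 untreated. The LPS arrays of low small RNA signal are the low ones in both genotypes, and WT replicate 1 is above the untreated arrays (log2 difference -0.41 in KO cells, adjusted p = 0.308, and -0.45 in WT cells, adjusted p = 0.763). Cox4i2, the lung form of the same subunit, was at 7.10, 7.17 and 7.41 in KO cells after LPS and at 7.09, 7.03 and 6.88 untreated, groups that do not overlap but adjoin (log2 difference 0.23, SE 0.12, adjusted p = 0.333). Cox7a2l, which takes part in joining complexes III and IV, had differences of -0.31 in KO cells and -0.26 in WT cells.

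Complex V had the lowest median of the 5 complexes in KO cells, -0.31, and -0.13 in WT cells. In KO cells 17 of 18 genes were below 0 and 11 were lower without overlap, beside 14.8% of all genes. In WT cells 14 were below 0 and 1 was lower without overlap, beside 13.9% of all genes. Atp5pb, the b subunit of the peripheral stalk, was at 10.56, 10.55 and 10.29 in KO cells after LPS, against 10.90, 11.09 and 10.86 untreated (log2 difference -0.49, SE 0.15, adjusted p = 0.0978). In WT cells its LPS arrays were at 10.77, 10.52 and 10.18, against 10.75 to 10.81 untreated, so that replicate 1 again lay within the untreated range. Atp5g2, one of the genes for the c subunit of the membrane ring and one of those with the NRF1 core shown above, had a difference of -0.40 in KO cells (SE 0.13, adjusted p = 0.105) and -0.13 in WT cells. Atp5mpl, a small proteolipid of the membrane part, had one of -0.61 in KO cells (SE 0.23, adjusted p = 0.17).

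Atp5l, the g subunit of the membrane part, was low on the arrays of low small RNA signal. It was at 11.26, 10.48 and 10.40 in KO cells after LPS, against 11.46, 11.36 and 11.03 untreated, and at 11.31, 10.55 and 10.27 in WT cells after LPS, against 11.43, 11.45 and 11.41 untreated. The 4 arrays of low small RNA signal held the 4 lowest values, and replicate 1 of each LPS group lay close to the untreated arrays; the part of this signal in the difference was not tested. Its difference was -0.57 in KO cells (SE 0.28, adjusted p = 0.286) and -0.72 in WT cells (SE 0.40, adjusted p = 0.65). Atp5a1 and Atp5b, subunits of the catalytic head, had differences of -0.18 and -0.13 in KO cells and of -0.03 and 0.06 in WT cells. The pseudogene Atp5c1-ps, whose mean signal (4.57) was below the medians of probe sets without a gene, had the highest differences of the 89 genes, 0.51 in KO cells (adjusted p = 0.231) and 0.53 in WT cells.

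**Figure D3:**
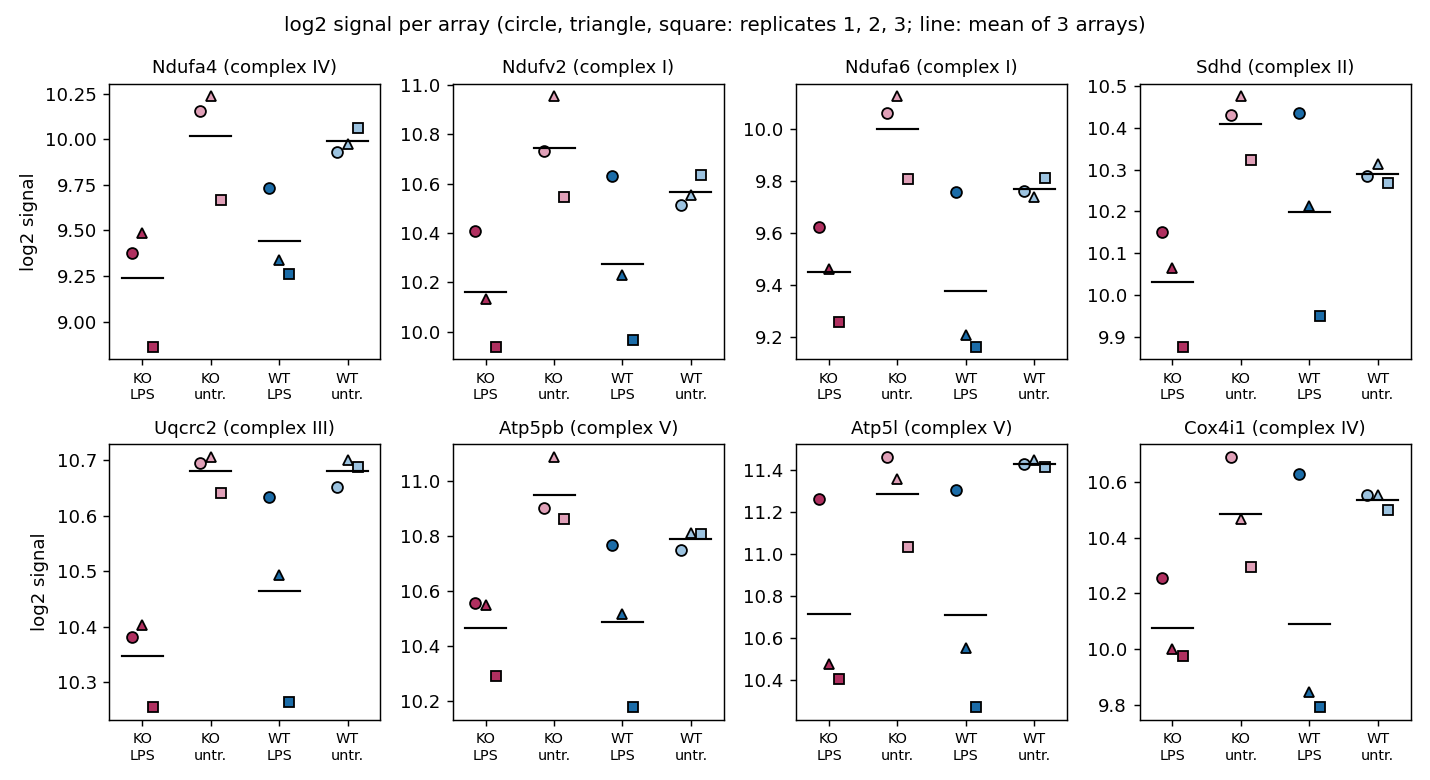
Log2 signal (y axis, a separate range in each panel that does not start at 0) of 8 genes on each array; circles, triangles and squares are replicates 1, 2 and 3, and lines are means of 3 arrays. Ndufa4 and Uqcrc2 have every LPS array below every untreated array in both genotypes, while Atp5l and Cox4i1 are lowest on replicates 2 and 3 of the LPS groups.

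Whether the response to LPS differed between genotypes was asked with the interaction term. It called 0 of the 89 genes, as it called 0 of all genes (0.0%), and 0 of the 89 had an unadjusted p under 0.05, against 4.43% of all genes. The LPS difference was lower in KO than in WT cells for 78 of the 89 genes (87.6%), against 87.8% of the brighter genes, with a median log2 difference of -0.21, against -0.06 over all genes and -0.17 over the brighter ones. Without WT LPS replicate 1 the median was -0.11, with 61 genes below 0, and without the 3 arrays with Y-linked signal it was -0.09, with 58 below 0. The 95% interval of a single gene reached 0.54 to either side at the median. By complex the medians were -0.24 (I), -0.17 (II), -0.11 (III), -0.20 (IV) and -0.17 (V). The smallest p were those of Ndufs5 (0.46), Ndufaf1 (-0.53), Atp5j, the coupling factor subunit (-0.39), the complex I subunit Ndufb8 (-0.41) and the ubiquitous Cox8a (-0.34), all with an adjusted p of 0.948. A difference between the genotypes in the response of these genes was therefore not shown. With quantile normalization of the arrays the median also moved to -0.09, with 64 of the 89 genes below 0.

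**Figure D4:**
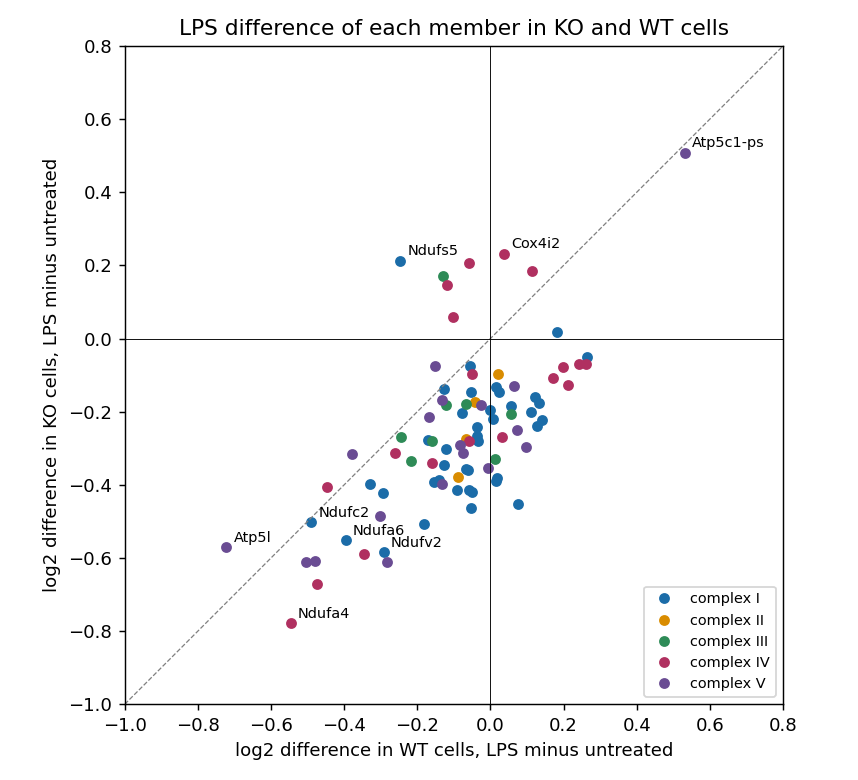
Log2 difference between LPS and untreated cells in WT cells (x axis) and KO cells (y axis) for each of the 89 genes, coloured by complex; the dashed line marks equal differences. Of the 89 points, 78 lie below the dashed line and 80 below 0 on the y axis, and Ndufa4 is the lowest in KO cells.

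Between genotypes, 0 of the 89 genes passed after LPS, without LPS or over both treatments, against 2 (0.00902%), 1 (0.00451%) and 3 (0.0135%) of all genes. At an unadjusted p under 0.05 there were 0, 1 and 2 of the 89, against 3.95%, 4.04% and 3.3% of all genes. Untreated KO cells lay slightly above untreated WT cells, with a median log2 difference of 0.10, against 0.02 over all genes and 0.14 over the brighter ones. Of the 89 genes 72 were above 0, as were 5647 of the 6440 brighter genes. Without untreated KO replicate 2, an array with Y-linked signal, the median was 0.05. All KO arrays were above all WT arrays for 20 genes (22.5%), against 17.7% of all genes, and below for 4 genes (4.49%), against 11.6%. The 20 were 12 genes of complex I, Sdha, Sdhb and Sdhd of complex II, Uqcrfs1 of complex III and 4 of complex V. As 22.5% is near the share of all genes, this list is a description and no result about the complexes. The 3 untreated WT arrays enter these counts separately, although the fit counts them as 1 sample. By complex the medians were 0.14 (I), 0.12 (II), 0.02 (III), 0.11 (IV) and 0.06 (V). With quantile normalization the median over the 89 was 0.01. This comparison and that of LPS in KO cells share the untreated KO arrays, so a high level there enters both.

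After LPS, KO against WT cells had a median log2 difference of -0.10, against -0.02 over all genes, and 75 of the 89 genes were below 0, but this direction rests on WT LPS replicate 1. Without that array the median was 0.00, with 44 of the 89 genes below 0, and without all 3 arrays with Y-linked signal it was -0.05, with 55 below 0. By complex the medians were -0.09 (I), -0.12 (II), -0.10 (III), -0.08 (IV) and -0.11 (V). The smallest p were those of the testis isoform Cox8c (0.23), Atp5c1, the gamma subunit of the rotor (-0.22), the accessory subunits Ndufa11 (-0.28) and Ndufa7 (-0.26), and Uqcrq, a small subunit of complex III (-0.29), all with an adjusted p of 0.999 by limma. The smallest p without LPS was that of Ndufs5, at 5.75, 5.90 and 6.05 in KO cells and 6.30, 6.22 and 6.62 in WT cells (log2 difference -0.48, SE 0.18, adjusted p = 0.97), a low signal. Uqcrh-ps1 (-0.58), Cox4i2 (-0.33), Ndufa5 (0.32) and the muscle isoform Cox6a2 (-0.28) followed, with an adjusted p of 0.97. Over both treatments the median was -0.01 (0.05 without WT LPS replicate 1), and the smallest p were those of Uqcrh-ps1 (-0.43), Ndufs5 (-0.25), Cox4i2 (-0.23), Cox8c (0.15) and Cox6a2 (-0.15), with adjusted p of 1.0. Atp5g2, Ndufa6, Ndufb9 and Uqcrh-ps1 lie on chromosome 15 like Arc, and the first 3 had differences over both treatments of -0.06, 0.15 and 0.04.

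Mitochondrially encoded subunits of the same complexes had, over the list, a median difference near 0. Of 26 listed symbols, which hold 2 naming styles, 10 genes were measured, and 0 passed in either LPS comparison. Their median log2 difference was 0.01 in KO cells and -0.01 in WT cells. Their log2 signals lay between 13.33 and 14.03, near the top of the range of the arrays, apart from ND6 at 10.79 to 11.41, and whether signals this high can show a change was not tested. ND6 was at 11.20, 10.81 and 10.79 in WT cells after LPS, against 11.41, 11.31 and 11.32 untreated, without overlap (log2 difference -0.41, SE 0.21, adjusted p = 0.612), and at 11.13, 10.94 and 10.99 in KO cells after LPS, against 11.34, 10.91 and 10.93 untreated, with overlap. ND3 was at 13.66, 13.57 and 13.50 in KO cells after LPS, against 13.76 to 13.79 untreated (log2 difference -0.21, SE 0.09, adjusted p = 0.254), and at 13.62, 13.57 and 13.54 in WT cells after LPS, against 13.77 to 13.78 untreated (log2 difference -0.19, adjusted p = 0.782).

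Assembly factors outside the naming pattern held single genes that passed. Of 39 measured, 3 fell and 1 rose after LPS in KO cells, with a list median of -0.30, and 0 passed in WT cells, with a median of -0.06. Tmem126b, an assembly factor of complex I, fell to 7.64, 7.54 and 7.51 in KO cells after LPS, against 8.68, 8.61 and 8.60 untreated (log2 -1.06, SE 0.15, adjusted p = 0.00219). In WT cells it was at 8.20, 7.89 and 7.53 after LPS and 8.34, 8.47 and 8.18 untreated. Its KO groups lay about 1 log2 unit apart, and its WT groups overlapped. Atpaf1, a chaperone of the catalytic head of complex V, fell by 0.50 on the log2 scale (SE 0.10, adjusted p = 0.0123), as did Cox16, a factor of complex IV assembly, by 0.51 (SE 0.13, adjusted p = 0.0428). Ttc19, which takes part in the upkeep of complex III, rose by 0.86 (SE 0.17, adjusted p = 0.0123) in KO cells, and had a difference of 1.03 (SE 0.23, adjusted p = 0.0618) in WT cells.

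Among genes of coenzyme Q synthesis and cytochrome c, Coq10b, a coenzyme Q-binding protein, was the one that rose in both genotypes. It was at 10.85, 10.53 and 10.64 in KO cells after LPS, against 9.10, 9.03 and 8.91 untreated, and at 10.79, 10.44 and 10.79 in WT cells after LPS, against 8.68, 8.78 and 8.80 untreated. The groups lay far apart, by 1.66 in KO cells (SE 0.13, adjusted p = 4.7e-05) and 1.92 in WT cells (SE 0.18, adjusted p = 0.000526). Of the 16 genes of this list measured, Coq3, a methyltransferase of coenzyme Q synthesis, fell in KO cells (log2 -0.65, adjusted p = 0.036), and no other gene passed. Of 21 regulators of mitochondrial biogenesis, Gabpb1, a subunit of GABP, rose in KO cells (log2 0.68, adjusted p = 0.00307) and WT cells (log2 0.76, adjusted p = 0.0287), and Tfb1m, which modifies mitochondrial ribosomal RNA, fell in KO cells (log2 -0.62, adjusted p = 0.0296). Members grouped by promoter motif overlap between groups and were not tested. The 19 members with the GABP core had a median difference of -0.32 in KO cells, against -0.27 for the 53 members with a promoter and no such core, and -0.13 against -0.05 in WT cells. The same medians were -0.35 against -0.27 in KO cells and -0.31 against -0.06 in WT cells for the 6 members with the estrogen-related receptor core. For the 10 with the YY1 core they were -0.33 against -0.27 and -0.00 against -0.07, and for the 7 with the NRF1 core -0.32 against -0.27 and -0.07 against -0.06.

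Other mitochondrial genes lay lower after LPS in KO cells too. Of 71 genes of mitochondrial ribosomal proteins, 38 (53.5%) were lower without overlap after LPS in KO cells and 4 (5.63%) in WT cells, with medians of -0.26 and -0.03, and 1, Mrps31, passed (log2 -0.54 in KO cells, adjusted p = 0.00722). The shares are close to the 48.3% and 6.74% of the respiratory chain genes. Of the 39 assembly factors, 18 (46.2%) in KO cells and 7 (17.9%) in WT cells were lower without overlap. Of 18 genes of the TCA cycle, 4 (22.2%) and 0 were, with medians of -0.25 and 0.08, and 0 passed in either comparison. Beside these counts, 14.8% of all genes and 26.4% of the brighter ones were lower without overlap in KO cells, and 13.9% of each in WT cells. The TCA cycle share in KO cells was thus not above that of the brighter genes. The test called 5.91% of all genes in KO cells and 1.57% in WT cells.

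Markers of other cell types moved with LPS as well. Of 12 neutrophil markers, 6 passed as lower after LPS in KO cells and 1 in WT cells, where intervals are wider. The list's median log2 difference was alike, at -0.95 in KO cells and -0.98 in WT cells. In each genotype 8 of the 12 had an unadjusted p under 0.05 by limma. The mean log2 signal over the list was 7.82 to 8.18 in KO cells after LPS, against 8.67 to 9.08 untreated, and 7.48 to 8.52 in WT cells after LPS, against 9.02 to 9.06 untreated. Of 6 inflammatory monocyte markers, 3 fell in KO cells and 1 in WT cells, with list means of 8.38 to 9.05 after LPS, against 9.75 to 10.11 untreated, in KO cells, and 8.64 to 9.20 after LPS, against 10.01 to 10.13 untreated, in WT cells. Their median log2 difference was -0.95 in KO cells and -1.03 in WT cells. Of 8 macrophage markers 1 fell in KO cells (list mean 9.64 to 10.51 after LPS and 10.43 to 10.71 untreated) and 0 in WT cells (10.15 to 10.33 and 10.58 to 10.62). Of 12 markers of conventional dendritic cells, 2 rose in KO cells and 1 in WT cells, with list means of 10.26 to 10.44 over all 12 arrays. Of 6 markers of eosinophils, basophils and mast cells, 1 rose and 1 fell in KO cells and 1 fell in WT cells, and 0 of 7 markers of B, T and NK cells passed. Between 10 and 12 of the neutrophil markers and all 6 monocyte markers were above the highest median of the probe sets without a gene on every array. In bulk RNA, fewer cells of a type and less RNA per cell cannot be told apart, and the part of these markers in the differences of the respiratory chain genes was not tested.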

How the data were processed

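Total RNA of 12 cultures was hybridised to 12 Affymetrix arrays after whole-transcript labelling, per the labels' protocols. The deposited values are log2 signals per probe set, normalized by the authors; the methods of background correction and normalization were not given in the sources used here, and the submitters' processing notes name limma. Of 34390 probe sets, 23521 carried 1 gene symbol, 1814 several and 9055 none in the platform annotation, which left 22180 genes. Precision is limited by how many arrays there are.

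Group means were fitted with lmFit of limma 3.58.1 (R 4.3.3), and contrasts were tested two-sided after eBayes, with p-values adjusted by Benjamini-Hochberg over the 22180 genes and a threshold of 0.05. All groups shared an estimate of the spread, with 10 samples and 6 residual degrees of freedom, and the lone untreated WT sample is assumed to vary like the others. The fit was tested on simulated data with independent noise and changes larger than the median differences reported here. That test does not speak to the detection of differences of this size. The members, lists and marker sets were chosen with earlier results of these data known. Genes named were those with the 5 smallest p of a contrast, the 2 smallest of each complex, the 3 farthest from the members' median on each side, and fixed core subunits, isoforms and assembly factors, and from each other list up to 4 genes past the threshold or the 2 of smallest p. Ndufb9, Ndufs4, Ndufa13 and other genes outside this rule, named only beside a count or a correlation, were chosen after their values were seen. The 10 complex IV subunits that are no isoform are listed in full.

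Residuals of same-numbered arrays correlated at 0.381, 0.299 and 0.196 between the KO groups and at 0.338, 0.358 and 0.228 between the LPS groups, all above 0.1, so numbers pair these arrays as a result from the data; what same-numbered cultures had in common is not in the labels. Between the WT groups they were -0.028, 0.009 and -0.017. Alternatives were another normalization, a filter on dim genes, other variance models, array weights, blocks, terms for arrays that stand apart, and leaving out arrays.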

Additional observations from a re-analysis of the deposited data

How the results depend on the processing

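Beside the setting used in the report 27 others were run, 25 planned and 2 chosen after seeing the data (without the arrays of low small RNA signal, and without those with Y-linked signal). No genotype or interaction comparison called a respiratory chain gene under any of them. In KO cells the count after LPS, 0 in the report, was 4 with 12 separate samples, where 872 of the 22180 genes rose and 1149 fell. It was 16 with the replicate block on 12 arrays, where 1008 genes rose and 1531 fell. With the replicate block on 9 arrays it was 13, where 952 rose and 1360 fell. Array weights, whose estimation did not converge, gave 40 (39 that fell and 1 that rose), where 1975 of all genes rose and 2723 fell. The count was 1 above the median mean signal, 1 with a variance trend, 1 with a robust trend, 1 with the mean over probe sets, 1 with a term for Y-linked signal (each Ndufa4) and 1 with a term for low small RNA signal (Atp5j2). In these settings between 652 and 974 of the genes tested fell. Leaving out 1 array gave 0 to 5. The count was 5 without KO LPS replicate 2 and 3 without WT LPS replicate 1, where 979 and 687 of all genes fell. In WT cells the count was 3 with the replicate block on 12 arrays, where 4.57% of all genes fell. The replicate block changed no call of a respiratory chain gene in the genotype comparisons. Over all genes, the block on 12 arrays called 20 higher and 203 lower in untreated KO than in untreated WT cells. With 12 separate arrays and no block these were 6 and 91, and in the report 1 and 0. The median over the genes in KO cells kept its sign, between -0.32 and -0.16. Without the arrays of low small RNA signal, the medians were 0.12 for LPS in WT cells, -0.26 for KO against WT after LPS and -0.37 for the interaction. In WT cells 25 of the 89 LPS differences were then below 0, in place of 60. Among the genes named with values in the LPS comparison of WT cells, those that turned were Atp5e 0.20, Atp5k 0.0017, Cox4i1 0.094, Uqcrh 0.018 and Sdhd 0.15. With a term for that signal, Atp5e was at 0.0025 and Sdhd at 0.088. Leaving out 1 array at a time, Sdhd lay between -0.21 and 0.035 in WT cells. Leaving out 1 array at a time, the median was -0.18 to 0.00 for KO against WT after LPS and -0.29 to -0.11 for the interaction, with the upper end without WT LPS replicate 1. The cause was not tested. At this number of arrays the 95% interval of an LPS difference reached, at the median over the genes, 0.31 to either side in KO cells and 0.44 in WT cells.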
